A study of Mus musculus with 16 samples.

Results

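The genes Mab21l2, Tdrd9, Rorb, Sbspon, Osmr, Aldh3a1, Ripk4, C4b, Matn4 and Spon1, were followed across blood-forming stem cells of young and old mice, as 10 of the 14829 genes in the count table. They were chosen by their measured counts, which lay close to the detection floor in young libraries and were clear in old ones, so their old-to-young difference selected them. That difference is therefore given as a description, with no test. Hematopoietic stem cells came from bone marrow of 4 young and 4 old mice, labelled by age group only. The marrow of every mouse was split and held for 1 h at 37 °C with dmPGE2, a stabilised form of prostaglandin E2, or with its vehicle, so that 16 libraries formed 4 groups of 4 (young vehicle, young dmPGE2, old vehicle and old dmPGE2). All groups shared this hour in culture, and no genetic change is given for any group. The mice carry the numbers 477, 478, 483 and 484 (young) and 479, 480, 485 and 486 (old), and 2 young and 2 old mice belong to each of 2 dates in the sample descriptions. The sources used here give neither the age in weeks, the strain, the sort gate nor the step done on those dates.

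Blood-forming stem cells make all blood lineages for life. With age they are known to grow in number, to favour platelet and myeloid output and to repopulate less well, and their RNA changes with them. The 10 genes do not form 1 pathway. Osmr encodes a cytokine receptor, C4b a complement protein, Matn4, Spon1 and Sbspon secreted or matrix proteins, Aldh3a1 an aldehyde-oxidising enzyme, Ripk4 a kinase, Rorb a nuclear receptor, Tdrd9 a helicase of the germ line piRNA pathway and Mab21l2 a gene of eye and body wall development.

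Library totals ran from 12960704 to 19226963 counts. A gene was taken as detected above 3 counts, which is 0.156 to 0.231 CPM depending on the library, CPM being the count scaled to the library total. These floors cover counting error only, because the reads carry no molecular identifiers. Stem cell markers (22 of 23 in the table) summed to 7662 to 8170 CPM in young and 8761 to 9758 in old vehicle libraries of date 1, and to 5308 to 5791 and 7540 to 7754 on date 2, with no overlap between the ages on either date. Megakaryocyte and platelet markers (23 of 23 in the table) summed to 3260 to 4475 CPM in young and 5425 to 6747 in old vehicle libraries, with no overlap. That sum was uneven. Mean levels in young and old vehicle were 150 and 637 CPM for Vwf, 504 and 944 for Mmrn1 and 32.9 and 450 for Selp. Pf4 had 95.4 and 98.4, Gp5 46.7 and 42.6 and Gata1 52.1 and 28.0. Endothelial markers (19 of 20) summed to 834 to 1105 CPM in young and 1044 to 1306 in old vehicle libraries. Mesenchymal stroma markers (16 of 25) summed to 106 to 143 CPM in young and 98.2 to 132 in old vehicle libraries, with overlap. On date 2 some mature lists were higher in young than in old vehicle libraries, without overlap. Neutrophil markers summed to 4341 to 5945 CPM in young and 3070 to 3275 in old. Erythroid markers came to 3925 to 4430 and 2418 to 2455, and monocyte and macrophage markers to 1004 to 1298 and 517 to 919. T and NK cell markers came to 479 to 524 and 300 to 386. The lists of B cells and of mast cells, basophils and eosinophils overlapped between the ages on date 2. On date 1 the neutrophil, erythroid and monocyte sums overlapped. The sum of T and NK cell markers was then higher in old, at 161 to 202 CPM against 102 to 123 in young. Over both dates that list was uneven. Klrb1c averaged 18.6 CPM in young and 94.4 in old vehicle libraries, but Nkg7 119 and 65.2, Gzma 16.6 and 1.22 and Cd3g 5.13 and 3.92. The part of these other cell types in the levels below was not tested. In bulk RNA, fewer cells with a transcript and less of it per cell cannot be told apart.

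The members were detected in every old library, but they were not silent in young cells. All 80 values of the 10 genes in the 8 old libraries lay above the floor, with 40 counts as the lowest. In young libraries 56 of 80 values lay above it and 18 were 0. A minimum of 10 counts left 46 young values, and a minimum of 1 count left 62. Young vehicle libraries had 24 of 40 values above the floor and young dmPGE2 libraries 32 of 40. Sbspon, C4b and Matn4 were above the floor in all 8 young libraries, and each other member in 4 or 5 of them. The wording "only in old" thus holds for none of the 10 at this floor.

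The number of members detected also differed among the young libraries. Vehicle libraries had 7 of 10 in mouse 477, 6 in mouse 478, 7 in mouse 483 and 4 in mouse 484, and dmPGE2 libraries had 9, 10, 4 and 9 in the same order. Mouse 483 went down with dmPGE2 and the other 3 went up. Their summed level was 6.13 to 18.8 CPM in young and 211 to 405 CPM in old libraries, which did not overlap.

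**Figure D1:**
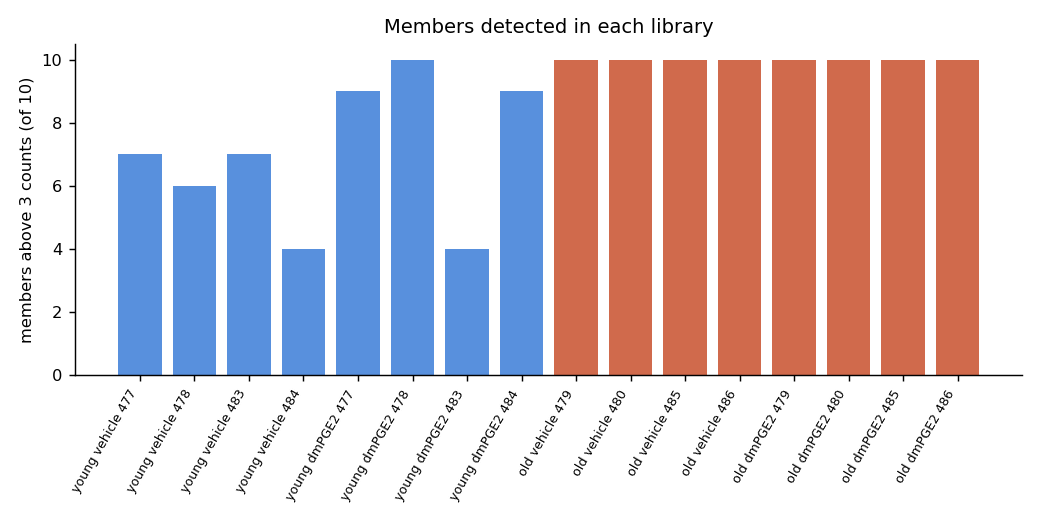
Number of the 10 members above 3 counts (vertical axis) in each of the 16 libraries (horizontal axis; blue young, red old; the number is the mouse). Old libraries all reach 10, and young libraries run from 4 to 10.

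Every old library lay above every young library for each of the 10 members, which the choice of members made likely. Over the whole table the same held for 410 genes, or 2.76%, and the reverse for 305 genes. Ranked by the gap between the lowest old and the highest young library in log2(CPM + 0.25), Sbspon stood first of all genes, C4b 3rd, Osmr 5th, Tdrd9 6th and Mab21l2 8th. Aldh3a1 followed at 10, Matn4 at 12, Rorb at 18, Ripk4 at 30 and Spon1 at 44. The narrowest member, Spon1, had a lowest old level of 2.60 CPM against a highest young level of 0.788 CPM. The lowest old level was 3.30 times the highest young level in Spon1 and 14.2 times in Sbspon.

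The 8 other named genes of widest gap were Kcnb2, Clca3a1, Selp, Cldn5, Dnm3, Bmpr1a, Rbpjl and Nupr1. Kcnb2, a potassium channel gene, ranked second with 0 or 1 count in young libraries and 55 to 189 in old vehicle libraries. Each of the 10 members, by contrast, exceeded 1 count in several young libraries. Selp, the platelet and endothelial adhesion receptor P-selectin, ranked 7th but had 242 to 971 counts in young libraries. A wide gap was thus found at very different levels.

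**Figure D2:**
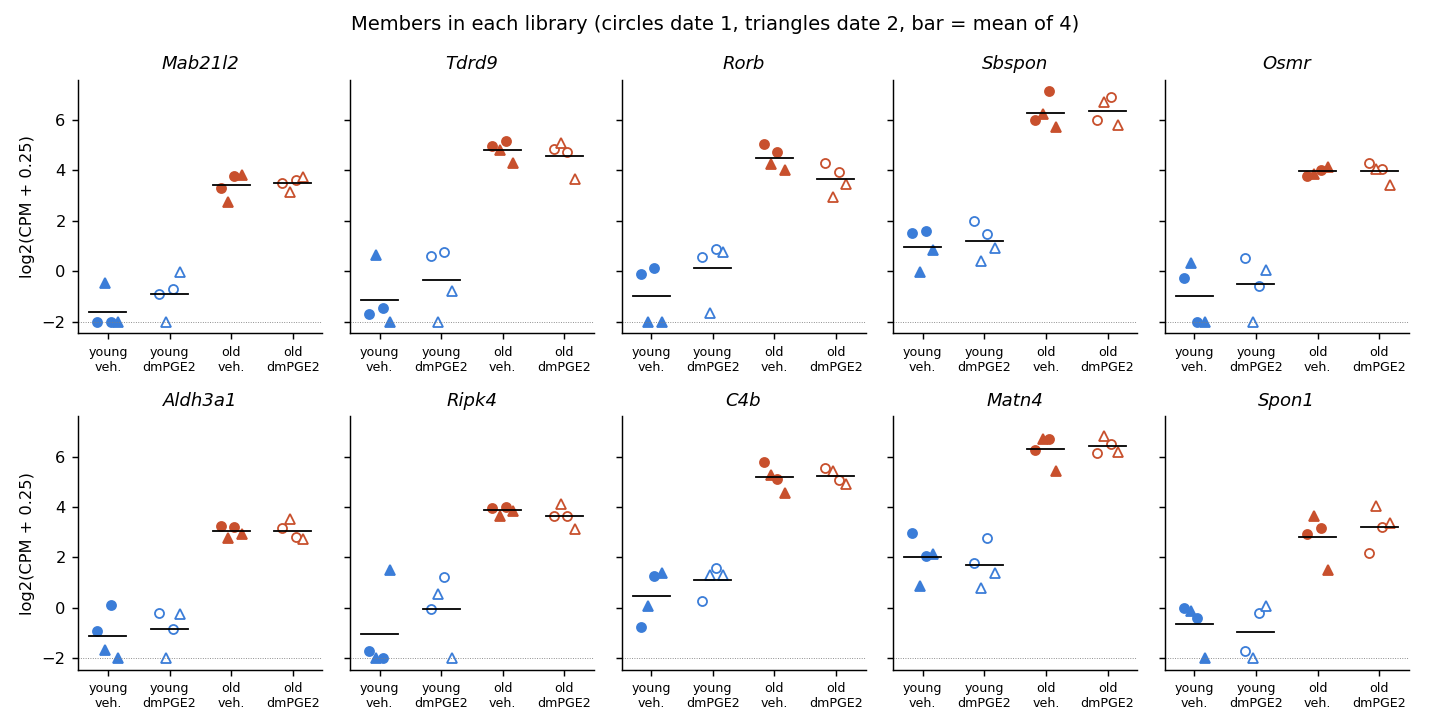
Level of each member in log2(CPM + 0.25) (vertical axis) in the 4 libraries of each group (filled vehicle, open dmPGE2; circles date 1, triangles date 2; horizontal bar the mean). The dotted line at -2 marks a count of 0, and in all 10 panels the red points lie above the blue points.

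Sbspon, which encodes a small secreted protein with somatomedin B and thrombospondin domains, was the member with the highest counts together with Matn4. It had 45, 49, 11 and 20 counts in the young vehicle libraries of mice 477, 478, 483 and 484, and 1070, 2530, 1176 and 818 in the old ones of mice 479, 480, 485 and 486. All 8 young libraries held it, at 16 to 67 counts with dmPGE2. Its mean was 1.90 ± 0.944 CPM in young and 83.1 ± 39.7 CPM in old vehicle libraries (SD, n = 4), a ratio of 43.8. The dmPGE2 ratio was 38.0. In GRCm38 it lies on the minus strand of chromosome 1 (15853862 to 15892722), with 5 exons. An unreviewed antisense transcript covers the same place and shares 72.4% of its 50-base windows. Nextera XT libraries do not mark strand, so reads of both cannot be told apart.

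Matn4, a matrilin that binds matrix and is made in cartilage and other tissues, was detected in each young library. Its counts were 133, 69, 24 and 54 in young and 1317, 1878, 1635 and 666 in old vehicle libraries, in the same mouse order. The mean was 4.30 ± 2.48 CPM in young and 82.5 ± 29.0 CPM in old (SD, n = 4), a ratio of 19.2. With dmPGE2 the ratio was 25.3.

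Spon1 (F-spondin, an extracellular matrix protein) had the lowest mean and the widest spread of the 10 in old vehicle libraries. Its counts were 13, 9, 10 and 0 in young and 125, 156, 193 and 40 in old vehicle libraries. Old mouse 486 had the fewest in vehicle, yet 152 counts in its dmPGE2 library. The means were 0.477 ± 0.333 and 7.75 ± 4.01 CPM (SD, n = 4), a ratio of 16.2. The dmPGE2 ratio was 26.9.

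Osmr, the receptor subunit that pairs with gp130 to bind oncostatin M, was absent or faint in young libraries and even across old vehicle libraries. It had 10, 0, 15 and 0 counts in young and 230, 288, 226 and 270 counts in old vehicle libraries. Old levels varied by 11.4% (coefficient of variation over 4 mice), and the mean was 15.4 ± 1.76 CPM (SD, n = 4) against 0.391 ± 0.483 in young. The old-to-young ratio of 39.4 became 80.9 without young mouse 483 and 29.55 without young mouse 478 or 484. It was 26.4 with dmPGE2.

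C4b, a complement component cleaved early in the cascade, was found in all young libraries. Counts were 6, 38, 12 and 31 in young and 940, 617, 609 and 358 in old vehicle libraries. The mean level was 1.41 ± 1.00 and 38.0 ± 13.4 CPM (SD, n = 4), 26.9 times higher in old. The dmPGE2 ratio was 18.8. Of its 50-base windows 34.6% also occur in its near-copy C4a, a gene not analysed here, so how the counting divided such reads bears on the C4b level.

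Aldh3a1, an enzyme that oxidises aldehydes and is abundant in cornea and stomach, varied by 15.8% (coefficient of variation) over the old vehicle libraries. It had 5, 15, 1 and 0 counts in young and 156, 162, 103 and 115 in old vehicle libraries. Means were 0.298 ± 0.382 and 8.07 ± 1.27 CPM (SD, n = 4). The ratio was 27.1 with all mice, 68.8 without young mouse 478 and 20.3 without young mouse 484. It was 21.9 with dmPGE2.

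Ripk4, a kinase known from skin differentiation, was above the floor in a single young vehicle library, as were Tdrd9 and Mab21l2. Young vehicle counts were 1, 0, 0 and 33, and old ones 260, 287, 192 and 220. Young dmPGE2 counts were 13, 40, 18 and 0, so mouse 484 was the only young mouse with Ripk4 in vehicle above the floor and the only one without it after dmPGE2. The ratio of 22.2 in vehicle rests on mouse 484, without which 1 count remained in the young vehicle libraries. It was 12.4 with dmPGE2.

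Tdrd9, an ATP-dependent helicase that works with PIWI proteins to silence transposons in germ cells, had 1, 2, 20 and 0 counts in young vehicle libraries. The old ones had 521, 633, 435 and 298. Its mean was 0.373 ± 0.635 in young and 28.3 ± 6.73 CPM in old vehicle libraries (SD, n = 4). The ratio of 75.9 rests on young mouse 483, without which 3 counts remained in the young vehicle libraries. It was 32.8 with dmPGE2.

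Mab21l2 lies inside the Lrba gene on the opposite strand and has a single exon. Its counts were 0, 0, 7 and 0 in young and 161, 244, 100 and 213 in old vehicle libraries. Only mouse 483 of the young vehicle set was above the floor. The means were 0.116 ± 0.231 and 10.8 ± 3.58 CPM (SD, n = 4), a ratio of 93.6 and the largest of the 10 in vehicle, and with dmPGE2 the ratio was 32.9. Without mouse 483 the young vehicle libraries held 0 counts, and the old mean was at least 174-fold higher against a floor of 3 counts over the 3 libraries. Of its 50-base windows 33.3% also occur in an Lrba transcript.

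Rorb, the beta member of the ROR nuclear receptors known mainly from retina and brain, had 12, 15, 0 and 0 counts in young vehicle libraries. Old ones had 550, 471, 292 and 248. Both young mice of date 1 held it and both of date 2 lacked it. Its means were 0.382 ± 0.445 and 23.4 ± 7.46 CPM (SD, n = 4), a ratio of 61.2 in vehicle. That ratio was 102 without young mouse 478 and 45.9 without young mouse 483 or 484. It was 12.2 with dmPGE2.

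Per length of transcript, the old vehicle levels spanned a wide range. Levels as RPKM, which is CPM divided by the gene's length in kilobases, were 32.1 ± 11.3 for Matn4 and 30.2 ± 14.5 for Sbspon, the 2 secreted proteins at the top. C4b had 7.05 ± 2.48, Tdrd9 5.88 ± 1.40, Aldh3a1 4.67 ± 0.738, Ripk4 4.08 ± 0.465 and Mab21l2 4.01 ± 1.32 RPKM. Osmr had 3.19 ± 0.364, Rorb 2.47 ± 0.790 and Spon1 1.26 ± 0.651 (SD, n = 4 for each). In this order only the steps from Sbspon to C4b and from Rorb to Spon1 exceeded the larger SD of the pair.

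Most members varied more among old mice than the median gene within the span of their levels. Their median coefficient of variation over the 4 old vehicle libraries was 32.5%, from 11.4% in Osmr and Ripk4 to 51.8% in Spon1. Over the 7196 genes with mean levels between 7.75 and 83.1 CPM in those libraries, the median was 14.1%, and 8 of 10 members lay above it. These genes were not matched to the level of each member, and the 4 libraries come from both dates. By the mean of a mouse's 2 libraries, mouse 486 was lowest for 7 of the 10 members. Mouse 479 was highest for Rorb, Osmr, Aldh3a1 and C4b, mouse 480 for Tdrd9 and Sbspon, mouse 485 for Ripk4, Matn4 and Spon1, and mouse 486 for Mab21l2. No single old mouse thus carried the set.

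Promoter sequence was available for 5 of the 10 members, from RefSeq (GRCm38.p6): Matn4, Mab21l2, Tdrd9, Osmr and Rorb. The stretches of Tdrd9 and Rorb are shown, because Tdrd9 is a germ line gene and Rorb was the member with the largest dmPGE2 difference in old mice. Each is the 250 bases before a transcription start, 5′ to 3′ on the gene's strand, with letters of searched motifs in capitals.
Tdrd9 (chr12:111971309-111971558, plus strand): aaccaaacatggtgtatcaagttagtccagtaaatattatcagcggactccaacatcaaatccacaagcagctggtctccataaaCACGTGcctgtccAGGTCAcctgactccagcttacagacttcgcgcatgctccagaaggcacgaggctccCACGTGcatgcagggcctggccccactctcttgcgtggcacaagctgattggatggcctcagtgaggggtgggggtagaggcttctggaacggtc
Rorb, first start (chr19:19111197-19111446, minus strand): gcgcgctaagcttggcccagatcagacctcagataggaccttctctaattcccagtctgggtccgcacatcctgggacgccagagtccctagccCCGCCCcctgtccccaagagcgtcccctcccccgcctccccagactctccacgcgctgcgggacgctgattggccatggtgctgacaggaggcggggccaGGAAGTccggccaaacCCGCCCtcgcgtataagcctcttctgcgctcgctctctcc
Rorb, second start (chr19:19001118-19001367, minus strand): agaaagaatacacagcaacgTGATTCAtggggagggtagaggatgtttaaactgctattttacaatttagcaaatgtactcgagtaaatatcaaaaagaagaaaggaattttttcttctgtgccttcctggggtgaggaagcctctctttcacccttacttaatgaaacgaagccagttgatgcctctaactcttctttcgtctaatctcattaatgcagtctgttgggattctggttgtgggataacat

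The Tdrd9 stretch holds the E-box CACGTG at 2 places and the nuclear receptor half-site AGGTCA once, motifs found on either strand in 8.10% and 11.2% of all 14173 promoters of that length. The first Rorb stretch is 66.0% G and C and holds the ETS site GGAAGT (22.7% of all promoters) and the GC box CCGCCC (54.8%). The second is 39.2% G and C and holds the AP-1 site TGANTCA (4.77% of all promoters). Of the 10 motifs searched, none was in more than 3 of the 7 stretches of these 5 genes. The STAT site TTCNNNGAA (6.11% of all promoters), the cyclic AMP response element half-site TGACG (25.4%) and the GATA site AGATAA (6.40%) were in none of the 7. A match is a run of letters only, and no match speaks only of these 250 bases.

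The question of what dmPGE2 did to the members in old stem cells was asked in pairs of libraries from the same mouse. None of the 10 passed the test (edgeR quasi-likelihood, Benjamini-Hochberg adjusted p under 0.05), against a background of 210 called of 13942 genes (1.51%). Rorb was the only one with an unadjusted p under 0.05, and DESeq2 called none either. The members' median log2 difference was 0.09, beside -0.01 over all genes, with 7 above 0 and 3 below.

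Rorb had the largest difference. Its level was 32.5, 26.3, 18.6 and 16.1 CPM in vehicle and 19.4, 15.1, 7.52 and 10.8 CPM with dmPGE2 in mice 479, 480, 485 and 486. All 4 old mice had less with dmPGE2, and the 2 groups overlap. The log2 difference was -0.80 ± 0.22 (SE, n = 4 pairs, edgeR adjusted p = 0.175), which is 1.74-fold, with -0.69 ± 0.30 on date 1 and -0.91 ± 0.31 on date 2. A fit of the old libraries alone, with mouse as a block, gave an edgeR adjusted p of 0.0819. The value misses the threshold in both fits.

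Of the genes of secreted proteins, 3 had small estimates, and that of Spon1 had a wide error. Sbspon had a log2 difference of 0.13 ± 0.12, Matn4 of 0.18 ± 0.21 and C4b of 0.11 ± 0.19 (SE, n = 4 pairs). In the fit of the old libraries alone these 3 values came to 0.13 ± 0.10, 0.17 ± 0.11 and 0.10 ± 0.11. Spon1 had 0.44 ± 0.69, with 3 old mice higher and 1 lower.

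Among the other members, Osmr had a log2 difference of 0.05 ± 0.54, Aldh3a1 of 0.08 ± 0.48 and Mab21l2 of 0.15 ± 0.54. Tdrd9 had -0.17 ± 0.37 and Ripk4 -0.19 ± 0.71. The error of these low genes was taken over all 16 libraries, young ones near 0 included. Without the young libraries it was between 0.171 and 0.255, and none was called. Apart from Rorb, the estimates in either direction were 1.04-fold to 1.36-fold, with errors that do not show equality.

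**Figure D3:**
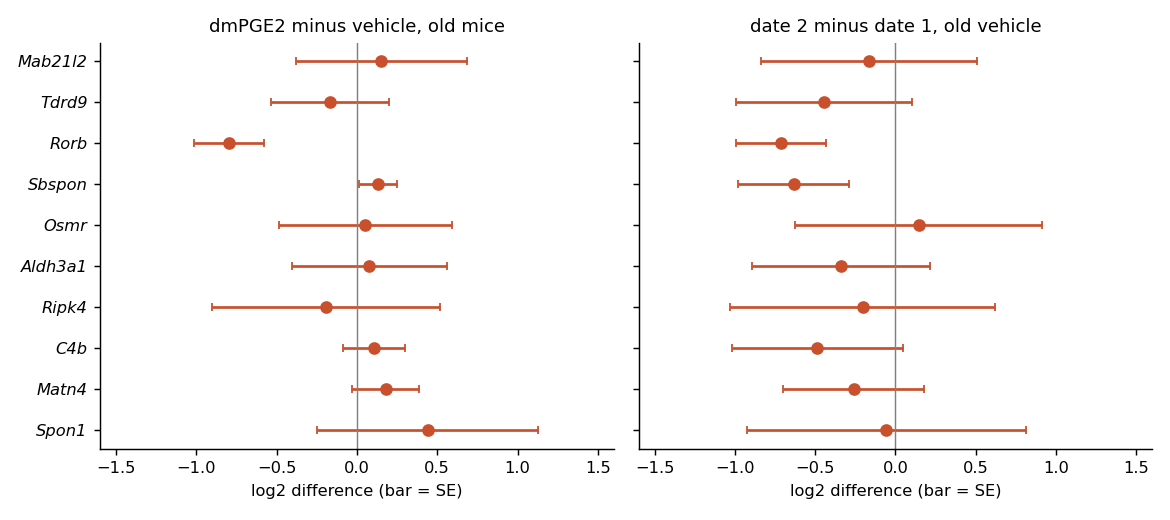
Log2 difference (horizontal axes, bar 1 SE) of each member between dmPGE2 and vehicle in old mice (left) and between date 2 and date 1 in old vehicle libraries (right). The vertical line marks 0, Rorb lies lowest in both panels, and no member passed the test in either.

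In young mice the dmPGE2 difference was examined after the counts were seen. Rorb was called among 257 of 13942 genes (1.84%), with a log2 difference of 3.74 ± 0.61 (SE, n = 4 pairs, edgeR adjusted p = 0.0108), and DESeq2 called it too. Its young levels were 0.686, 0.841, 0 and 0 CPM in vehicle and 1.23, 1.61, 0.0681 and 1.44 CPM with dmPGE2 in mice 477, 478, 483 and 484. All 4 were higher, but mouse 483 only by 1 count and mouse 484 from 0 to 22 counts. The fitted size depends on those zeros. Without mouse 484 the edgeR adjusted p was 0.520 and without mouse 478 it was 0.0589, and in a fit of young libraries alone it was 0.269. Its opposite signs in the ages gave an old minus young difference of -4.53 ± 0.64 on the log2 scale, with an edgeR adjusted p of 0.106, so the ages were not shown to differ.

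**Figure D4:**
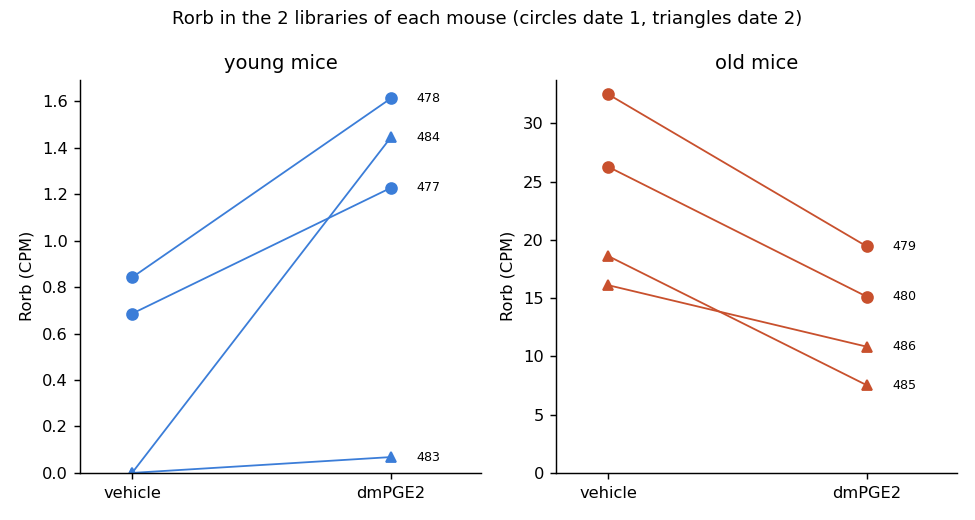
Rorb level in CPM (vertical axes, scaled separately) in the vehicle and dmPGE2 library of each mouse (lines join a mouse; circles date 1, triangles date 2). Old mice lie at 16.1 to 32.5 CPM in vehicle and 7.52 to 19.4 with dmPGE2, and the young mice stay at or below 1.61 CPM.

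The other 9 members were not called in young mice. C4b had a log2 difference of 0.65 ± 0.28 (edgeR adjusted p = 0.321), with 3 of 4 young mice higher. Mab21l2 had 2.90 ± 1.37 (adjusted p = 0.370) on counts of 0 to 11.

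The dates were compared in the old vehicle libraries, 2 mice each. None of the 10 members was called, against 468 of 13369 genes (3.50%), and DESeq2 called none. Rorb, at 32.5 and 26.3 CPM on date 1 and 18.6 and 16.1 on date 2, was lower on date 2 by a log2 difference of -0.72 ± 0.28 (SE, edgeR adjusted p = 0.305) and was the only member with an unadjusted p under 0.05. Sbspon had -0.63 ± 0.34, C4b -0.49 ± 0.53 and Tdrd9 -0.44 ± 0.55. Osmr was the only member above 0, at 0.15 ± 0.77. Markers of neutrophils ran from 972 to 3275 CPM over the old vehicle libraries and those of mast cells, basophils and eosinophils from 16.2 to 6260 CPM. The widest span of a member there, highest over lowest library, was 4.74 times, in Spon1. The part of such cells in the member levels was not tested. The median over the members was -0.30, beside 0.00 over all genes.

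Genes next to the members were tested by age, since the members themselves could not be. The nearest genes of the table on both sides and those overlapping a member came to 23, of which 21 could be tested in vehicle libraries and 3 were called. Among all genes that are not members 2308 of 13359 were called (17.3%), so the neighbours' count was near the background. Their median log2 difference was 0.04 (all genes 0.00).

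The called ones lay beside Matn4 and Rorb. Rbpjl, a transcription factor gene of the pancreas that shares a head-to-head start with Matn4 on chromosome 2, had 0 to 7 counts in the 8 young libraries and 46 to 181 in the 4 old vehicle ones. It was higher in old by a log2 difference of 5.09 ± 0.72 (SE, n = 4 per age, edgeR adjusted p = 0.000945). Rbpjl and Matn4 share 71 exon bases, 2.76% of the Matn4 exons and 2.89% of the Rbpjl exons, in which reads of the 2 genes cannot be told apart. Sdc4, a heparan sulfate proteoglycan that lies 19087 bases from Matn4, beyond Rbpjl on the same side, averaged 17.4 ± 2.78 CPM in young and 38.5 ± 8.63 in old (log2 1.14 ± 0.20, edgeR adjusted p = 0.00312).

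Trpm6, a magnesium channel gene 38098 bases from Rorb, averaged 1.17 ± 0.643 CPM in young and 8.78 ± 2.22 in old (SD, n = 4; log2 2.90 ± 0.48, edgeR adjusted p = 0.00235). On date 2 alone only Rbpjl of the 3 was called, with Trpm6 at an edgeR adjusted p of 0.0539 and Sdc4 at 0.0759.

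Genes within 1000000 bases of a member were also searched among the members and the 30 other genes of widest gap. Such genes are high in old by that choice, and how often a pair arises by chance was not tested. Besides Rbpjl, the search gave a neighbour of Sbspon further off. Kcnb2, the gene with the second widest gap of all, ends 139648 bases from it on chromosome 1, with 1 gene of the table between them. That gene, Terf1 of the telomere, had a log2 difference of 0.26 ± 0.19 (edgeR adjusted p = 0.380). Lrba, which surrounds Mab21l2, had 0.41 ± 0.29 (adjusted p = 0.369) and shares no exon base with the Mab21l2 model. Rd3l, inside an intron of Tdrd9 on the other strand, was too low to test, with 0 counts in each young library and 4 to 20 in old vehicle libraries, and without strand its reads cannot be told from reads of the Tdrd9 intron.

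**Figure D5:**
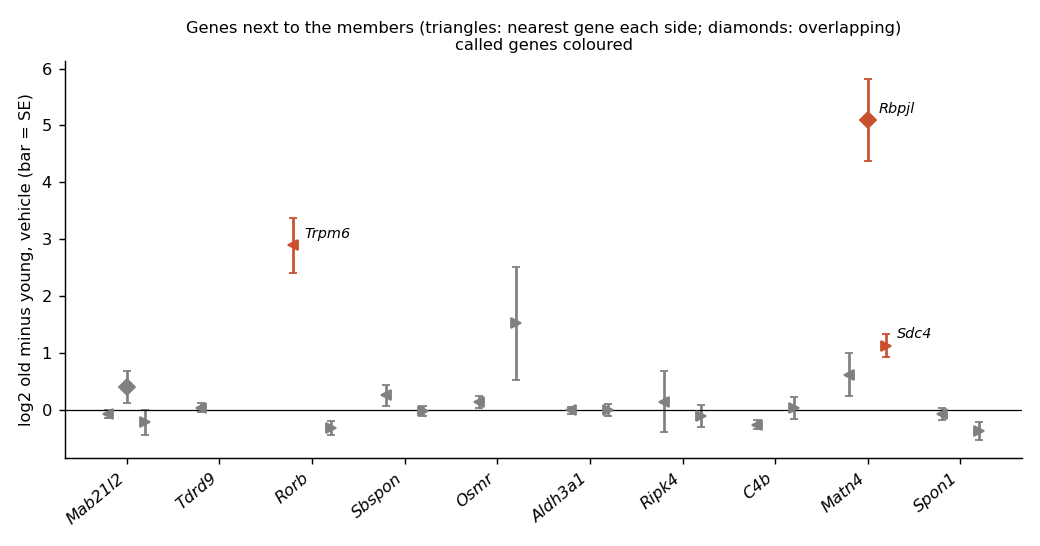
Log2 difference between old and young vehicle libraries (vertical axis, bar 1 SE) of the tested genes beside each member (horizontal axis; triangles the nearest gene on each side, diamonds an overlapping gene). Called genes are in red: Rbpjl at 5.09, Trpm6 at 2.90 and Sdc4 at 1.14.

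Genes with roles like those of the members were tested the same way in vehicle libraries. Of all genes that are not members, 8.41% were called higher and 8.87% lower in old. In the list of oncostatin M and interleukin 6 signalling, 8 of 27 tested were higher and 1 lower, with a median log2 of 0.20. Without the date term 4 genes of the list were called. Bcl3, a nuclear partner of NF-kB, went from 28.0 ± 1.81 to 68.0 ± 14.6 CPM, and Stat3, the main transducer below gp130, from 358 ± 39.7 to 540 ± 49.7 CPM (SD, n = 4; edgeR adjusted p = 0.000161 and 0.000202). Junb, a subunit of AP-1, rose by a log2 of 1.07 ± 0.19 (adjusted p = 0.00518), a call lost without the date term (0.494). Socs2, an inhibitor of cytokine signalling, fell by 2.31 ± 0.30 (edgeR adjusted p = 0.000589).

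The list of ROR and REV-ERB receptors and clock genes, the relatives of Rorb, had 5 of 19 called higher, none lower, and a median log2 of 0.30. That count was 2 without mouse 478 or mouse 480, 3 without any 1 of mice 479, 483 and 485, 3 in the dmPGE2 libraries and 2 without the date term. Rora, the alpha member, went from 27.3 ± 6.52 to 42.3 ± 5.61 CPM (SD, n = 4; edgeR adjusted p = 0.0248). The Rora call was lost without any 1 of mice 478, 479, 480, 483 and 486 (0.0606 to 0.0731) and without the date term (0.0751). Bhlhe40, a clock repressor, rose by a log2 of 1.28 ± 0.15 (edgeR adjusted p = 0.000374; 0.334 without the date term). Its relative Bhlhe41 had a mean of 0.137 ± 0.0438 CPM in young, below the floor, and 1.16 ± 0.281 in old. Bhlhe41 was not called in the dmPGE2 libraries (edgeR adjusted p = 0.443), nor without any 1 of mice 478, 480 and 485 (0.0519 to 0.0771).

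Matrix genes split. Of 17 tested relatives of Matn4, Spon1 and Sbspon 4 were higher and 3 lower, with a median log2 of -0.06, and 4 in all were called without the date term. Cyr61, a matricellular protein, went from 4.53 ± 3.16 to 113 ± 111 CPM and Efemp2, a fibulin, from 1.41 ± 0.539 to 8.31 ± 2.07 (edgeR adjusted p = 5.25e-05 and 0.000744). Cyr61 was not called without the date term (0.0720). Rspo4, a secreted Wnt enhancer, had 0 counts in each young vehicle library and 11 to 33 in old ones, at least 29.2-fold higher against a floor of 3 counts over the 4 young libraries. With dmPGE2, young libraries reached 5 counts and old ones ran from 0 to 45, and Rspo4 was not tested there. On date 2 alone it was not called (edgeR adjusted p = 0.0662). Col4a2, a collagen of basement membrane, fell by 0.89 ± 0.13 on the log2 scale (edgeR adjusted p = 0.0011).

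Relatives of the other members gave few calls. In complement, 2 of 21 were higher and 1 lower (median log2 0.08): Cd55, which shields cells from complement, rose by 1.05 ± 0.14, the protease gene C1ra rose by 0.52 ± 0.12 and C1qbp, a mitochondrial protein, fell by 0.42 ± 0.10. C1qbp was not called without mouse 480 (edgeR adjusted p = 0.0607), and neither it nor C1ra without the date term (0.0582 and 0.0948). In the dmPGE2 libraries Cd55 and C1ra were not called (edgeR adjusted p = 0.0609 and 0.207). Among aldehyde dehydrogenases 1 of 14 was higher and 2 lower (median -0.09). That one was Aldh1a1, the retinal-oxidising enzyme, which went from 120 ± 31.7 to 378 ± 62.5 CPM (edgeR adjusted p = 4.51e-07), while Aldh1b1 fell by 0.63 ± 0.19 and Aldh9a1 by 0.27 ± 0.08. Aldh1b1 was called without mouse 486 but lost without any 1 of the other 7 (edgeR adjusted p 0.0527 to 0.126). Aldh9a1 was lost without any 1 of mice 478, 479, 483, 484, 485 and 486 (0.0530 to 0.100). Neither was called in the dmPGE2 libraries (edgeR adjusted p = 0.227 and 0.0722) or without the date term (0.167 and 0.0855). Aldh3a2, the gene beside Aldh3a1 and closest to it by name, had 0.01 ± 0.10.

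RIP kinases and partners had 3 of 20 higher and none lower (median 0.01). Among them, Zbp1, a sensor of nucleic acids that binds RIP kinases, rose by a log2 of 1.13 ± 0.22 and Tnfrsf1b, a TNF receptor, by 0.36 ± 0.09. Tnfrsf1b was lost without mouse 480 or 485 (edgeR adjusted p 0.0605 and 0.0562) and without the date term (0.0540). In the dmPGE2 libraries it was not called (0.109). In the tudor domain and piRNA pathway 0 of 11 were higher and 1 lower (median -0.14), Ddx4, a germ cell helicase, which was called at a log2 of -2.58 ± 0.69 in vehicle and not in dmPGE2 libraries (edgeR adjusted p = 0.582). Ddx4 was called without mouse 483 but lost without any 1 of the other 7 (0.0557 to 0.127). In the MAB21 family 0 of 9 were higher and 1 lower (median -0.11), the DNA sensor gene Mb21d1 at -0.58 ± 0.15, lost without any 1 of mice 477, 478, 480, 483 and 485 (edgeR adjusted p 0.0610 to 0.0903).

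A list of genes reported as raised in aged stem cells was drawn up with results of these data known. Of its genes 45 of 50 were called higher and 1 lower (median log2 1.73), a count that is therefore no test of the age labels. Clca3a1 rose by 4.22 ± 0.16, Nupr1 by 3.10 ± 0.15 and Ehd3 by 2.31 ± 0.11, and Aldh1a1 belongs to this list too.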

How the data were processed

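The deposited table holds raw read counts per gene, made by the authors with STAR 2.5.2b, featureCounts and Subread 1.5.1 on mm10, per the submitters' processing notes. The annotation and the strand setting: not given in the sources used here. Its 2504 empty lines were left out. CPM divides by the library total, and RPKM also by the gene length in the table. Genes were tested with edgeR 4.0.16 in R 4.3.3 (TMM scaling, filterByExpr, robust quasi-likelihood test, Benjamini-Hochberg adjusted p under 0.05 over all genes tested), and with DESeq2 1.42.0 as an alternative. SE is the log2 difference divided by the root of F. For dmPGE2, all 16 libraries entered 1 fit with the mouse as a block and dmPGE2 terms for each age and date, since the design text says that the cells of each mouse were split. The 2 libraries of a mouse deviated together from their group means (correlations 0.348 to 0.595 over the 8 mice). Dates and ages were compared in the 8 vehicle libraries. The fits were tested on simulated data with known fold changes.

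The members and gene lists were chosen with earlier results of these data known. Named besides the 10 members are the 8 other genes of widest gap, up to 4 called genes of each list by smallest p, and neighbours that were called or overlap a member; predicted genes are not named. Terf1 and Aldh3a2, which lie beside a member or between it and another gene, were added after their values were seen. So were the single cell type markers, and the tests of dmPGE2 in young mice and of its difference by age. Places and transcripts come from GENCODE M21 and RefSeq (GRCm38), whose coordinates are those of mm10. Some genes that this rule takes are not reported here.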

Additional observations from a re-analysis of the deposited data

Results flagged for a closer look

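Among the 40 sets of 4 libraries (10 members in 4 groups), 3 had a sample far from the other 3, where chance flags about 1 in 20 sets, or 2 here. That rate need not hold for sets such as these 3, whose other values lay at or near 0 counts. All 3 were young vehicle libraries of date 2. Mab21l2 stood at 0.463 CPM in young mouse 483 with 0 in the other 3 mice. Tdrd9 stood at 1.32 CPM in the same library. Ripk4 stood at 2.55 CPM in young mouse 484. For Rorb, every old mouse was lower and every young mouse higher with dmPGE2, with an old minus young log2 difference of -4.53 that missed the threshold (edgeR adjusted p = 0.106).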

How the results depend on the processing

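Members called stayed at 0 in old mice for dmPGE2 and for date under every alternative run, with 0.0819 as the smallest adjusted p (Rorb, old libraries only). The count of genes called for dmPGE2 in old mice was 210, with 0 under a replicate block with no date terms, 19 on date 2 alone and 120 to 221 leaving out 1 mouse. For date, 468 became 731 with DESeq2 and 203 to 426 leaving out 1 mouse. For age, 2308 became 856 on date 1 alone, 1048 on date 2 alone, 962 without the date term and 1438 to 2119 leaving out 1 mouse. The lowest counts came without mouse 480 in all 3. Neighbours called fell from 3 to 1 on date 2 alone. Young values above the floor were 24 of 40 in vehicle libraries only and 40 to 45 of 60 leaving out 1 young mouse. Without the replicate block, Rorb in young mice had a log2 difference of 3.80 (edgeR adjusted p = 0.0689), and with the replicate block but no date terms 1.57 (0.267). The block changed no call of a member in old mice.

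No reversed value below was called. For dmPGE2 on date 1 alone Sbspon had -0.038, Aldh3a1 -0.15, C4b -0.075, Matn4 -0.092 and Spon1 -0.29, and on date 2 alone Osmr had -0.25. Leaving out 1 mouse, Tdrd9 ranged from -0.41 to 0.055, Osmr from -0.19 to 0.29, Aldh3a1 from -0.18 to 0.32 and Ripk4 from -0.52 to 0.12. For date in dmPGE2 libraries Osmr had -0.41, Aldh3a1 0.16, Ripk4 0.072, Matn4 0.20 and Spon1 1.00. Leaving out 1 mouse, Mab21l2 ranged from -0.80 to 0.27, Sbspon from -1.11 to 0.073, Matn4 from -1.06 to 0.25 and Spon1 from -1.61 to 0.67. Lrba by age had -0.11 on date 2 alone and -0.29 in dmPGE2 libraries. The cause was not tested. Depth limits the members in young libraries, where 24 of 80 values lie at or below 3 counts.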
